A study of Mus musculus with 9 samples.

Results

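Malat1, Neat1, Dst, Macf1, Lars2, Gm42418, AY036118 and Gm26917 are 8 of the 31053 genes counted in single cells sorted from the brains of mice given PLX5622, an inhibitor of the receptor CSF1R on which microglia depend for survival. The 8 were chosen by name from transcripts that mark a cluster of cells with few unique molecular identifiers (UMIs, each standing for 1 captured RNA molecule) in these same data, as nuclear, very long or ribosomal RNA-overlapping transcripts, so their level in shallow cells is described here without a test. All 8 were found in every library, and their share of the UMIs was followed against the depth of a cell, its mitochondrial share, its cell class and the treatment.

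All mice were female, C57BL/6 in the labels and C57BL/6J in the study's methods, with no transgene named. Ctrl mice were naive and age-matched, and each of the 3 Ctrl libraries came from 1 brain. D0 mice were fed PLX5622 in the diet at 1200 mg/kg over 14 days, and D2 mice had the same feeding followed by 2 days of control diet. Each of the 3 D0 and 3 D2 libraries pooled 2 brains. The cerebellum was removed, myelin was depleted and live Cd11b+ cells were sorted, so cells lost in dissociation or dead at the sort were not sampled. The diet depletes microglia, and the cells of D0 are those that remained. Library D2-3 was set aside by the study and is given here beside the results, with a summed microglial marker level of 14083 counts-per-million (CPM) against 45929 to 66148 in the other 8 libraries. The 9 libraries held 36391 barcodes and between 20257894 and 61230741 UMIs each. Clusters carrying the markers of neutrophils, which are myeloid, or of non-myeloid cells were left out. Kept myeloid cells, 25798 in the 8 libraries, lay between 500 and 20000 UMIs, with 200 or more genes detected and no more than 10% of UMIs from mitochondrial genes. Of these, 2498 had under 2000 UMIs and are called shallow, and 23300 are called deeper. A sum over cells cannot tell fewer cells of a kind from less RNA per cell. In all, 142 barcode sequences occurred in 2 or more libraries.

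Malat1 and Neat1 are long non-coding RNAs that stay in the nucleus, Malat1 at nuclear speckles, where splicing factors gather, and Neat1 as the scaffold of paraspeckles. Dst (dystonin) and Macf1 are plakins, giant proteins that link microtubules to actin and other filaments, and both are read from very long genes. Lars2 is the leucyl-tRNA synthetase of mitochondria. Gm42418, AY036118 and Gm26917 are predicted non-coding genes at a locus of ribosomal RNA-like sequence, and Gm42418 carries the RefSeq synonym of an 18S ribosomal RNA-related sequence. Nuclear RNA remains in a nucleus when the cytoplasm is lost, while mitochondrial RNA and cytoplasmic messenger RNA belong to the cytoplasm, which is why both are measured here.

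In the GENCODE vM21 annotation (GRCm38, the mm10 build), Malat1 lies at chr19:5795690-5802672 on the minus strand and Neat1 beside it at chr19:5824708-5845478, also on the minus strand. Dst spans chr1:33908225-34308661 on the plus strand with a longest transcript of 23279 bases, and Macf1 spans chr4:123349633-123684360 on the minus strand with one of 23495 bases. Lars2 spans chr9:123366927-123462666 on the plus strand, with a transcript of 3894 bases, so it is neither very long nor annotated as nuclear. It was grouped here with the ribosomal RNA-overlapping members. No ribosomal RNA sequence was searched, so that overlap was not checked. On chromosome 17, Gm26917 (chr17:39843013-39846341, plus strand) ends 616 bases before Gm42418 (chr17:39846958-39848788, plus strand). AY036118 (chr17:39847113-39848035) lies wholly inside Gm42418 on the other strand, and its 923 bases are 50.4% of Gm42418. The edge of that shared stretch is shown because reads of the pair that fall inside the stretch can be told apart by strand alone. The bases common to both are in capitals:

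Gm42418, bases 136 to 195: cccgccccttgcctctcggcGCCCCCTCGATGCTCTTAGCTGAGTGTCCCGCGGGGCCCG

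AY036118, bases 884 to 923: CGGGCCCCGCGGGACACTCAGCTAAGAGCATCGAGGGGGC

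No 24-letter word of Gm26917 or Lars2 was found in any other of the 8 longest transcripts on either strand, and the remaining shared words were 10 on the same and 7 on the opposite strand of Malat1 and Neat1. The libraries were primed with an oligo-dT primer, which binds runs of A, so each transcript was searched on its own strand for runs of 10 or more A before its last 50 bases. Of the 8, only Malat1 and Dst held one, as did 8.7% of all genes. Among genes of similar transcript length the share was 35.4% for the length of Malat1 and 38.5% for that of Dst. The longest runs are shown in capitals because they are where such a primer could bind inside the transcript, with that of Gm42418 for contrast:

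Malat1, bases 6664 to 6695: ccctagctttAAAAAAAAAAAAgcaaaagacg

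Dst, bases 22964 to 23014: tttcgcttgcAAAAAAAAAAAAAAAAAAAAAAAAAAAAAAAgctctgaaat

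Gm42418, bases 200 to 225: gtttactttgAAAAAAttagagtgtt

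The run of 12 A in Malat1 lay 298 bases from the end of the transcript and the run of 31 A in Dst lay 275 bases from it. In the other 6 transcripts the longest run was 4 to 7 A. A match describes these letters and shows no priming.

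The 8 transcripts took up very different shares of the RNA. In kept cells of the 8 libraries Malat1 made up 11938 to 28295 CPM and Gm42418 978 to 8167 CPM, whereas the highest level of any other member was 636 CPM, of Macf1 in Ctrl-1. The lowest was that of Lars2, 24.9 CPM in D0-2. These are UMIs of a 3′ assay, which do not scale with transcript length. The counts behind them set the precision. In deeper cells the 95% Wilson interval of a level reached at most 7.87% of its value to either side, and in shallow cells up to 130%, for the 3 UMIs of Lars2 in Ctrl-2. These intervals cover counting error only.

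Shallow cells gave a larger share to every member, as the choice of the members set. Over all shallow and all deeper cells of the 8 libraries, the shallow share was 7.93 times the deeper share for Gm26917, 7.37 times for Gm42418, 4.01 times for Lars2 and 3.57 times for AY036118. It was 1.82 times for Dst, 1.74 times for Malat1, 1.64 times for Macf1 and 1.44 times for Neat1. Within libraries the mean log2 ratio was 2.15 ± 0.33 (SD, n = 8) for Gm42418 and 0.79 ± 0.36 (n = 8) for Malat1. It was 2.14 ± 1.01 (n = 8) for Gm26917, whose spread over libraries was the widest of the 8. The ratio was above 0 in 8 of 8 libraries for 7 members and in 7 of 8 for Lars2. Among 3220 genes with at least 50 CPM in either class, ranked by this ratio, Gm42418 was in place 2, Gm26917 3, AY036118 6, Lars2 7 and Malat1 22. Lars2, at 177 CPM in shallow and 44.2 CPM in deeper cells, was ranked only through its shallow level. Neat1, Macf1 and Dst were in places 195, 221 and 233. By rank the 3 genes of the chromosome 17 locus, Lars2 and Malat1 were thus near the top, and Neat1 and the 2 plakins well below. By the ratio over all cells Malat1, at 1.74, lay between Dst and Macf1 and below Lars2 and the chromosome 17 genes.

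The number of UMIs of a member in a cell separated them further. From cells of 500 to 1000 UMIs to cells of 8000 to 20000 UMIs the mean total rose 16.8-fold. Malat1 rose 7.32-fold, from 24.6 ± 12.8 to 180 ± 61.1 UMIs per cell (SD, n = 8 libraries). Neat1 rose 8.01-fold, Macf1 7.38-fold, Dst 7.05-fold, AY036118 4.75-fold and Lars2 3.81-fold. Gm42418 had 20.2 ± 18.8, 18.4 ± 12.4, 17.6 ± 13, 24.5 ± 18.5 and 38.8 ± 27 UMIs per cell in the 5 depth classes of 500 to 1000, 1000 to 2000, 2000 to 4000, 4000 to 8000 and 8000 to 20000 UMIs. These are means over libraries that differed widely. From the shallowest to the deepest class its number per cell was 1.46 to 4.85 times as high in single libraries, higher in 8 of 8. From 500 to 1000 UMIs to 2000 to 4000 UMIs it went from 49.5 to 37.8 UMIs per cell in Ctrl-1, from 39.3 to 31.4 in D2-1 and from 32.8 to 20 in D2-2. In Ctrl-2, with few Gm42418 UMIs, it went the other way, from 3.63 to 8.34, and it was also higher in the deeper of these classes in Ctrl-3, D0-1, D0-2 and D0-3. Gm26917 had 0.948 ± 0.952 UMIs per cell in the shallowest and 0.946 ± 0.185 in the deepest class. The first mean rested on D2-1 (2.47), D2-2 (1.91) and D0-2 (1.8), and in the other 5 libraries Gm26917 was higher in the deepest class, at 0.787 to 0.992 against 0.0909 to 0.612 UMIs per cell.

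**Figure D1:**
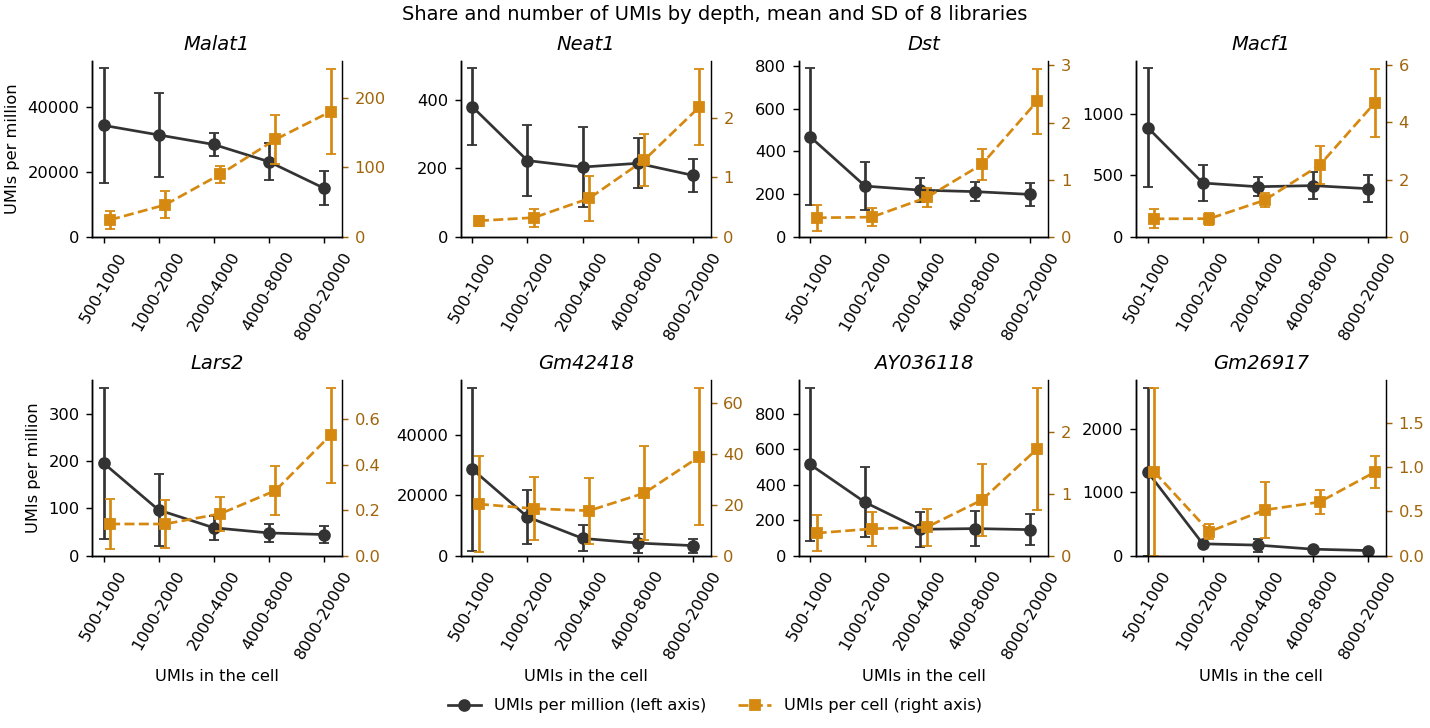
Each panel plots 1 transcript against the number of UMIs in the cell, in 5 classes, for kept myeloid cells. Black circles are the share in CPM (left axis), orange squares the mean number of UMIs per cell (right axis), and bars the SD of 8 libraries, drawn from 0. The share of Gm42418 falls from 28538 to 3284 CPM while its mean number per cell goes from 20.2 to 38.8, with an SD of 18.8 and 27. Malat1 falls from 34452 to 15072 CPM.

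As a share, Gm42418 fell over these 5 classes from 28538 ± 26893 to 12768 ± 8823, 5680 ± 4280, 4135 ± 3152 and 3284 ± 2331 CPM (SD, n = 8). Malat1 fell from 34452 ± 17717 to 31500 ± 13002, 28554 ± 3583, 23259 ± 5633 and 15072 ± 5337 CPM. The means of both transcripts thus declined with each step in depth, and their SD was largest in the shallowest cells. In single libraries Malat1 fell at every step in none. From 500 to 1000 UMIs to 1000 to 2000 UMIs it rose from 14648 to 30931 CPM in D0-2 and from 14234 to 36035 CPM in D0-3. Gm42418 fell at every step except in Ctrl-2 (5328 to 12015 CPM at the first) and Ctrl-3 (1260 to 1410 CPM at the last). The plakins were high in the first class alone, at 469 ± 320 CPM for Dst and 888 ± 485 CPM for Macf1. From 1000 UMIs upward the means lay at 199 to 238 CPM for Dst and at or below 438 CPM for Macf1. The mean of Neat1 went from 380 ± 113 CPM to 180 to 223 CPM in the deeper classes, and that of Gm26917 from 1324 ± 1332 to 79 ± 16.4 CPM.

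Other gene groups differed in their ratio of shallow to deeper cells. They were counted over every gene with a UMI in either class, with no filter on the level, and 38.2% of all 20100 such genes were higher in shallow cells (median log2 ratio −0.00). A rare gene can lack UMIs in shallow cells, which hold far fewer, and then counts as lower. Of the 3220 genes with at least 50 CPM in either class, 1490 were higher and 1730 lower (median −0.03). All 14 microglial markers were lower, with a median log2 ratio of −0.44. Of 90 ribosomal protein genes 75 were lower and 15 higher (median −0.12). The 13 messenger RNAs encoded in mitochondrial DNA were all higher, with a median of 0.13. Of 10 nuclear long non-coding RNAs other than the members 8 were higher (median 0.22), among them Kcnq1ot1, the antisense RNA of an imprinted locus, at 237 CPM in shallow and 111 CPM in deeper cells (0.84). Of 30 long coding transcripts 27 were higher (median 0.37), among them the ubiquitin ligase Mycbp2 at 0.66. Of 14 genes of nuclear speckle proteins 13 were higher (median 0.19), among them Son at 0.49, and of 10 genes of paraspeckle proteins 6 were (median 0.24), among them Sfpq at 0.62. Apoptosis and stress genes were higher in 4 of 14 (median −0.17).

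Markers of cells other than microglia also differed between the classes. Border-associated macrophage markers were higher in shallow cells in 8 of 8 (median 0.41), neutrophil markers in 7 of 8 (0.65) and endothelial markers in 7 of 8 (0.29). Monocyte markers were higher in 6 of 8 (0.12), but Ly6c2 (−0.63) and Ccr2 (−0.39) were lower, and dendritic cell markers were higher in 2 of 8. Ttr, a choroid plexus gene, was at 214 CPM in shallow and 15.6 CPM in deeper cells. Summed border-associated macrophage markers were higher in shallow cells in the 3 Ctrl libraries, at 592 to 1452 CPM against 105 to 198 CPM. In the other 5 of the 8 libraries they stood at or below 90 CPM in both classes. Their part in the members' levels was not tested.

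Beside the members, the genes with the largest log2 ratios in one direction in all 8 libraries were Gm47283 at 0.98, Htt (huntingtin) at 0.91, Stard9 at 0.86, Gm26699 at 0.86 and Hnrnph1, a splicing regulator, at 0.85. The lowest were Gdf15 at −1.15, Rab20 at −0.98, Irf2bpl at −0.93, the chemokine Ccl4 at −0.92, Lgals3bp and Cited2 at −0.91, As3mt at −0.90 and Ier3 at −0.89. Htt and Gm26699 were among the genes ranked only through their level in shallow cells, and Gdf15, Rab20, Irf2bpl and As3mt only through that in deeper cells. These are descriptions of the same cells by which the members were chosen.

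Over the 40 sums of library and depth class, the genes closest to each other by Pearson r of log2(CPM + 10) were read among 3093 genes. These sums share libraries and depth, and r is given as a description. Gm42418 was closest to AY036118 (r = 0.938), Lars2 (0.881), Lcorl (0.857), R3hdm2 (0.848) and Hp1bp3 (0.824). Malat1 was closest to Pnisr (0.918), Son (0.905), Arhgap45 (0.900), Mef2a (0.892) and Nav2 (0.891), and its r with Gm42418 was 0.388. Macf1 was closest to Dst (0.893), Srrm2 (0.892), Kmt2c (0.881), Huwe1 (0.862) and Mycbp2 (0.854). Pnisr, Son and Srrm2 encode proteins of splicing and nuclear speckles. Gm42418 and Malat1 were thus each closer to their own 5 genes than to each other.

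In cells pooled over the 8 libraries, those of 5 to 10% mitochondrial UMIs had the highest Malat1 share at 500 to 1000 UMIs. At 8000 to 20000 UMIs they had the lowest. In cells of 500 to 1000 UMIs Malat1 was at 28643 CPM where under 1% of the UMIs were mitochondrial, 23487 at 1 to 2%, 33718 at 2 to 5% and 61104 at 5 to 10%. In cells of 8000 to 20000 UMIs it fell over the same 4 classes, from 19893 to 18657, 13785 and 9602 CPM. Gm42418 was instead highest in the lowest mitochondrial class at 500 to 1000 UMIs, with 54521, 38246, 35551 and 36928 CPM. Macf1 stood at 1120, 779, 823 and 1267 CPM there, and Dst at 668, 438, 441 and 568 CPM, both highest at the ends. Each of these levels is a sum over 210 to 7340 cells, pooled over libraries and treatments that differed in Malat1 and in mitochondrial share. Within single libraries, over all kept cells, the Spearman correlation of the Malat1 share with the mitochondrial share ran from −0.14 to −0.37 in the 8 libraries.

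Barcodes with over 10% mitochondrial UMIs, 1950 in the 9 libraries and outside the kept cells, carried high levels of the same transcripts. Malat1 stood at 57455, 46587 and 24540 CPM in those of Ctrl-1, Ctrl-2 and Ctrl-3. It stood at 53125, 36226 and 37547 CPM in those of D0-1, D0-2 and D0-3 and at 50705 and 43631 CPM in those of D2-1 and D2-2. In each of these 8 libraries that was above the level in kept cells of all depths. Most of the 1950 barcodes were low in UMIs, with 972 at 500 to 1000 and 668 at 1000 to 2000 UMIs. Beside shallow kept cells, their Malat1 level was lower in Ctrl-3 (24540 against 36837 CPM) and about level in Ctrl-2 (46587 against 46778 CPM). It was higher for Ctrl-1 (57455 against 53760 CPM), all D0 libraries, D2-1 and D2-2. The part of depth in these levels was not tested. Over the 9 libraries together these barcodes held 20796 CPM of Gm42418, 651 of Macf1 and 367 of Dst, with 4.25% of UMIs from ribosomal protein genes against 15% in barcodes of 2 to 5% mitochondrial UMIs. Their summed microglial markers were 17074 CPM against 48219 CPM there, and their summed astroglial markers 2848 CPM against 122 CPM.

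Shallow cells were of more than 1 kind in their Malat1 share. The median shallow cell gave 1.1% of its UMIs to Malat1, less than the 1.9% of the median deeper cell, although the summed share was higher. The 10th and 90th percentiles of shallow cells were 0.0536% and 10.2%, against 0.573% and 3.69% in deeper cells. Under 1% were 1214 shallow cells (48.6%), from 1 to 3% were 456 (18.3%) and at 3% or more were 828 (33.1%). The summed level of 828 of the 2498 cells, at 88240 CPM, stood against 2510 CPM in the 1214.

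**Figure D2:**
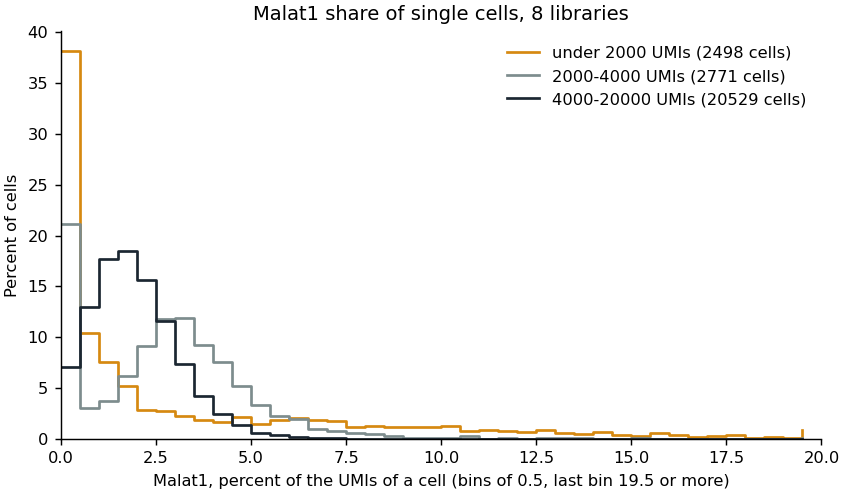
The plot shows the percent of cells (vertical) at each Malat1 share of a cell's UMIs (horizontal, bins of 0.5 percentage points, the last open) in 3 depth classes of kept cells of the 8 libraries. Cells of 4000 to 20000 UMIs form a single peak, those of 2000 to 4000 UMIs have a peak and a separate group near 0, and those under 2000 UMIs spread from 0 into the last, open bin.

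The 828 Malat1-high shallow cells differed from the 1214 Malat1-low ones in the other members. Pooled over the 8 libraries they held 646 against 57.4 CPM of Neat1, 777 against 150 CPM of Dst and 1286 against 282 CPM of Macf1. They held 306 against 106 CPM of Lars2, 41895 against 17236 CPM of Gm42418 and 853 against 305 CPM of AY036118. Gm26917 differed least, at 859 against 536 CPM. Ribosomal protein genes gave 3.6% of the UMIs of the Malat1-high cells and 20.6% of those of the Malat1-low cells. Summed microglial markers stood at 28767 and 46710 CPM and the mitochondrial share at 4.19% and 3.38%. Of the Malat1-high cells 331 came from Ctrl-1. In each of the 8 libraries the Malat1-high cells had the lower ribosomal protein share and more Neat1, Dst and Macf1. The other measures varied. Microglial markers were higher in the Malat1-high cells of D0-2 (45340 against 36165 CPM) and about level in D0-3 (28236 against 28498 CPM), and the mitochondrial share was lower in those of Ctrl-3 (3.69 against 4.43%) and D2-1 (3.65 against 3.98%). Gm42418 was lower in the Malat1-high cells of D0-2 (2599 against 3775 CPM) and D0-3 (3465 against 4753 CPM), AY036118 in those of Ctrl-2 (211 against 324 CPM), and Lars2 and Gm26917 in those of D0-2 (53.1 against 63 and 301 against 1127 CPM). The cells were split by Malat1 itself, and these are sums with no test.

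The split varied between libraries. Of the shallow cells of Ctrl-1, Ctrl-2 and Ctrl-3, 58.4%, 48.1% and 42.5% had 3% or more Malat1. In D0-1, D0-2 and D0-3 they were 22.1%, 20.6% and 24.2%, in D2-1 and D2-2 27.6% and 19.1%, and in D2-3 10.2%. The 3 Ctrl libraries lay above all others.

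Clustering without the 8 members gave 22 clusters, of which clusters 7 and 10 held most shallow cells. Cluster 7 had 1324 cells with a median of 1215 UMIs and 1.52% mitochondrial UMIs, and cluster 10 had 1210 cells with a median of 1968.5 UMIs and 6.21%. Both are left unnamed, since their median depth was 0.216 and 0.326 times that of their libraries and no leading gene was a microglial marker. Clusters 17 and 19, at 0.159 and 0.108 times, had markers of their type among their leading genes and kept their names. In both, 14 of 14 microglial markers were at 100 CPM or more. The same held in cluster 11 (neutrophil), 17 (endothelial), 18 (astroglial) and 19 (ependymal), so this count does not set microglia apart from other cells. Summed microglial markers were at 43657 to 59287 CPM in cluster 7 and 43006 to 63778 CPM in cluster 10 of the 8 libraries. In named cells of 2000 to 8000 UMIs the sum was 60653 CPM in microglia-like cells. It was 27413 in border-associated macrophage-like, 13564 in astroglial-like, 3203 in endothelial-like and 3137 CPM in neutrophil-like cells. By fold the leading genes of cluster 7 included Gm42418, Gm26917, Lars2 and AY036118, and the 10 leading genes of cluster 10 were all encoded in mitochondrial DNA. Malat1 was at 11305 CPM in the former and 18130 in the latter, and was not among the leading genes of either.

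The level of Gm42418 separated libraries within each group. In kept cells it was at 8167, 1560 and 1392 CPM in Ctrl-1, Ctrl-2 and Ctrl-3. It was at 6433, 978 and 1022 CPM in D0-1, D0-2 and D0-3. It was at 7257 and 5869 CPM in D2-1 and D2-2, and at 1955 CPM in D2-3. Ctrl-1, D0-1, D2-1 and D2-2 were thus above all other libraries. AY036118 followed with 296, 79 and 66.4 CPM in the Ctrl libraries, 231, 57.2 and 68.7 CPM in the D0 libraries and 247 and 179 CPM in D2-1 and D2-2. Lars2 had 81.8, 34.3 and 33.1 CPM, then 53.3, 24.9 and 28.4 CPM, then 61.5 and 66 CPM. In deeper cells the highest library was 7.75 times the lowest for Gm42418 and 4.99 times for AY036118, in places 31 and 59 of 2909 genes, against a median of 1.64 times over these genes. Among the Ctrl libraries alone, which share a treatment, the ratio was 5.46 for Gm42418, place 4 of 2909, and 4.34 for AY036118, place 11, against a median of 1.2.

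**Figure D3:**
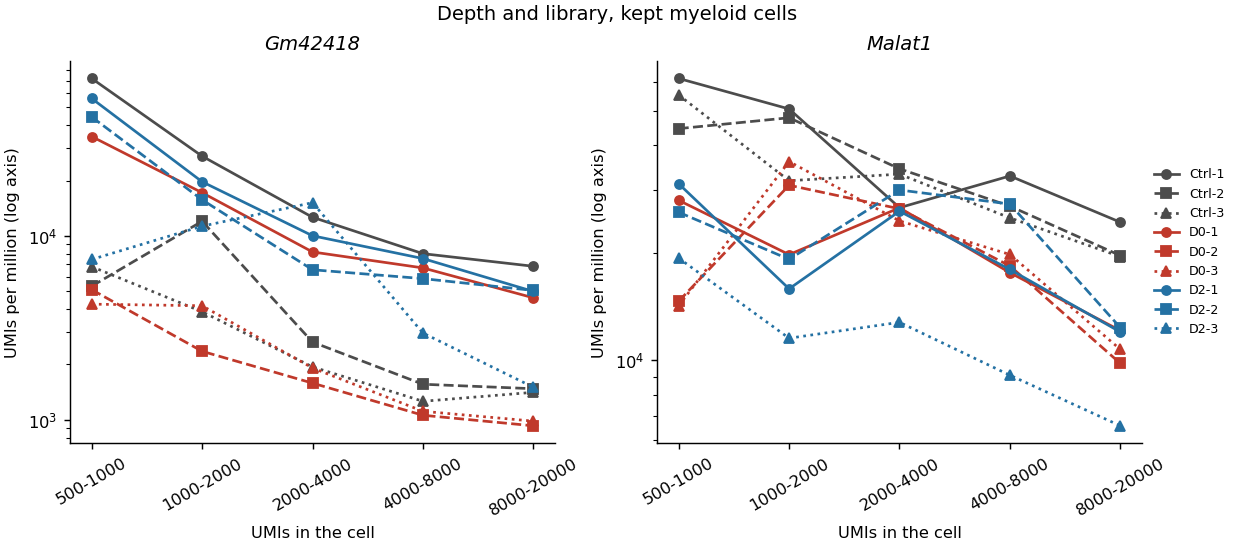
Each line is 1 library, with its share of Gm42418 (left) and Malat1 (right) in CPM on a log axis against the number of UMIs in the cell, in 5 classes. Grey is Ctrl, red D0 and blue D2, with circles for library 1, squares for 2 and triangles for 3. For Gm42418 the lines of Ctrl-1, D0-1, D2-1 and D2-2 lie above those of Ctrl-2, Ctrl-3, D0-2 and D0-3 in every class. For Malat1 the Ctrl lines lie above the D0 lines in 4 of the 5 classes.

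The same 4 libraries had the fewest UMIs in all, 20257894 to 35018681, against 39370542 to 61230741 in the other 5. They also had the most shallow cells among the 8, 13.7% of kept cells in Ctrl-1, 14.5% in D0-1, 15.7% in D2-1 and 16.3% in D2-2, against 3.19 to 4.74% in Ctrl-2, Ctrl-3, D0-2 and D0-3. Their barcodes with over 10% mitochondrial UMIs were 4.68 to 11.5% of all, against 2.27 to 3.09% in the other 4 of the 8. D2-3 had 60195759 UMIs and 11.5% shallow cells. The software version in the matrix headers (Cell Ranger) split them otherwise: 3.0.2 stood in Ctrl-1, all D0 libraries, D2-1 and D2-2, and 3.1.0 in the remaining 3. The part of these measures in the level of Gm42418 was not tested. Within libraries the Spearman correlation over cells of the Gm42418 share with the UMIs of the cell ran from −0.60 to −0.74 in Ctrl-1, D0-1, D2-1 and D2-2 and from −0.03 to −0.17 in Ctrl-2, Ctrl-3, D0-2 and D0-3. In D2-3 it was −0.31. For Malat1 it was between −0.12 and −0.43 in the 8 libraries and −0.07 in D2-3. In ranks over single cells the other members did not share this direction. For Neat1, Dst, Lars2 and Gm26917 the correlation was positive in all 8 libraries, between 0.05 and 0.25. For Macf1 it ran from −0.00 to 0.16 and for AY036118 from −0.01 to 0.20. Cells of 500 to 1000 UMIs held means of 0.139 to 0.948 UMIs of these members, so many cells tie at a share of 0. The correlation thus also reflects detection. Summed over cells, their share was higher in shallow than in deeper cells, at 1.44 to 7.93 times.

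At a like depth of 2000 to 8000 UMIs, cells of other kinds in these libraries showed the same split of Gm42418. In microglia-like cells it stood at 8018, 1501 and 1281 CPM in the Ctrl libraries, 6996, 1054 and 1095 CPM in the D0 libraries and 7566 and 5708 CPM in D2-1 and D2-2. In endothelial-like cells it stood at 47969, 7760 and 5824 CPM, then 32388, 6273 and 5258 CPM, then 33509 and 31831 CPM. In neutrophil-like cells it stood at 17255, 2614 and 3430 CPM, then 9532, 1589 and 1885 CPM, then 9030 and 6301 CPM. Each class had its 4 highest values in Ctrl-1, D0-1, D2-1 and D2-2. The neutrophil-like values rest on 13 to 245 cells a library and the endothelial-like values on 20 to 118. Endothelial-like cells were above microglia-like cells in all 8 libraries.

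Cell classes differed in the other members too, in the same depth window over the 8 libraries. Malat1 was at 105961 CPM in astroglial-like, 77311 in mural-like, 41681 in endothelial-like, 24986 in microglia-like, 20155 in neutrophil-like and 16952 CPM in monocyte-like cells. Neat1 was highest in neutrophil-like cells at 1440 CPM, with 944 in monocyte-like, 602 in border-associated macrophage-like and 175 CPM in microglia-like cells. Macf1 was at 1294 CPM in astroglial-like, 1002 in endothelial-like, 452 in microglia-like and 75.4 CPM in neutrophil-like cells. Dst was at 449 CPM in mural-like, 362 in astroglial-like, 230 in microglia-like, 12.4 in neutrophil-like and 7.5 CPM in monocyte-like cells. These are sums over cells with no test. They rest on 11551 microglia-like cells, on 652 neutrophil-like, 528 endothelial-like, 414 border-associated macrophage-like, 209 monocyte-like and 163 mural-like cells, and on fewer astroglial-like cells.

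The counts of the 3 neighbours on chromosome 17 did not keep 1 ratio. Per 100 UMIs of Gm42418 in kept cells there were 3.63, 5.06 and 4.77 UMIs of AY036118 in the Ctrl libraries and 3.59, 5.84 and 6.72 in the D0 libraries. There were 3.41 and 3.06 in D2-1 and D2-2. Gm26917 came to 1.14, 5.28 and 5.52 per 100 in the Ctrl libraries, 1.24, 7.46 and 7.88 in the D0 libraries and 2.4 and 2.35 in D2-1 and D2-2. Gm26917 therefore did not follow Gm42418 between libraries, and both D2 libraries stood above Ctrl-1 and D0-1 in this ratio.

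Levels of the 8 members were then compared between treatments with edgeR's quasi-likelihood test on UMIs summed per library over kept cells, with p-values adjusted over all 12834 genes tested. The question was whether the transcripts differ in cells that outlive CSF1R inhibition (D0) or in early repopulation (D2) from those of naive brains. The study describes the cluster by which the members were chosen as enriched in D2, so D2 tests are not independent of that choice. Where groups are said not to overlap, the share of all genes doing so was counted for D0 below Ctrl by depth class only.

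**Figure D4:**
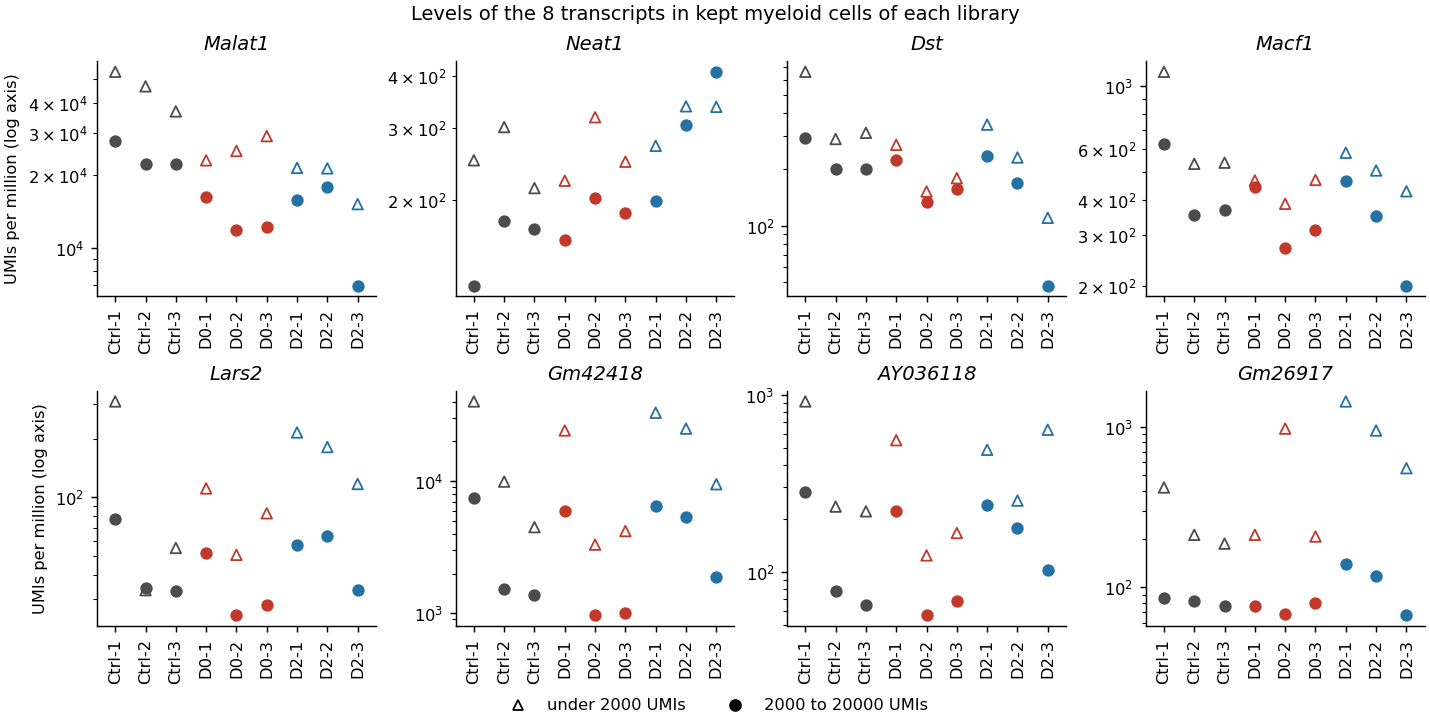
Each panel shows 1 transcript in CPM (log axis, with its own range) in each of the 9 libraries. Filled circles are kept cells of 2000 to 20000 UMIs and open triangles those under 2000 UMIs, with Ctrl grey, D0 red and D2 blue. In circles, the 3 D0 libraries lie below the 3 Ctrl libraries for Malat1, and both D2 libraries used lie above all Ctrl and D0 libraries for Gm26917. Triangles lie above the circle of the same library for every transcript in the 8 libraries, except Lars2 in Ctrl-2.

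In D0 against Ctrl 1 of the 8 members passed, against 20.3% of all genes in either direction. Malat1 fell. It was at 28295, 22345 and 22390 CPM in Ctrl (24343 ± 3422, SD, n = 3) and at 16523, 11938 and 12254 CPM in D0 (13572 ± 2561, n = 3). All 3 D0 libraries were below all 3 Ctrl libraries, and the share of all genes that were so is given below by depth class only. The log2 fold change was −0.65 ± 0.13 (SE), with an adjusted p of 0.0106 in edgeR, scaled by trimmed means. In the 4 libraries with the most UMIs of the 8 (Ctrl-2, Ctrl-3, D0-2 and D0-3), an alternative chosen after the data were seen, the edgeR value was −0.64 ± 0.08 (adjusted p = 0.00523), and in microglia-like clusters alone it was −0.67 ± 0.13 (adjusted p = 0.00631). It was past the threshold in 21 of 22 alternatives. With D2-3 in the fit the same fold of −0.65 had an adjusted p of 0.269.

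In microglia-like cells of 2000 to 8000 UMIs, Malat1 was at 34069, 28301 and 26150 CPM in Ctrl and at 19697, 19457 and 21517 CPM in D0. In neutrophil-like cells of this depth the groups overlapped, with 31959, 22463 and 17203 CPM in Ctrl and 21460, 16989 and 23681 CPM in D0. They also overlapped in endothelial-like cells, at 41420, 31398 and 30603 CPM in Ctrl and 44451, 33386 and 41973 CPM in D0. The Ctrl values rest on 13, 72 and 21 neutrophil-like and 23, 20 and 28 endothelial-like cells, against 1889, 1038 and 2016 microglia-like cells. The difference between classes was not tested. Split by depth, all 3 D0 libraries were below all 3 Ctrl libraries for Malat1 at 500 to 1000 UMIs, where 16.5% of 3360 genes were, at 2000 to 4000 (13.8% of genes), at 4000 to 8000 (34.8%) and at 8000 to 20000 (32%). At 1000 to 2000 UMIs (11.5% of genes) the groups overlapped for Malat1, while Macf1 was lower in all 3 D0 libraries. Dst was so at 2000 to 4000 UMIs, and no other member was so in any class.

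Other measures moved with the treatment beside Malat1. Ribosomal protein genes gave 10.1 to 11.4% of the kept UMIs of the Ctrl libraries, 16.2 to 17.3% of those of D0 and between 16 and 16.5% of those of D2. Summed microglial markers ranged over 58552 to 66148 CPM in the Ctrl libraries, 50748 to 52118 CPM in the D0 libraries and 45929 to 46125 CPM in D2-1 and D2-2, and 5 of 14 fell in D0 and 8 of 14 in D2. Of 7 neutrophil markers tested 3 rose in D0 and 1 in D2, with summed levels of 200 to 274 CPM in the Ctrl libraries, 178 to 497 CPM in the D0 libraries and 271 and 424 CPM in D2-1 and D2-2. Their part in the Malat1 level was not tested.

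The other 7 members did not pass in D0. Neat1 was at 127, 179 and 170 CPM in Ctrl and 161, 202 and 186 CPM in D0 (log2 fold change 0.41 ± 0.21, edgeR adjusted p = 0.205). Dst had 302, 200 and 201 CPM in Ctrl and 226, 134 and 157 CPM in D0 (−0.24 ± 0.21). Macf1 had 636, 355 and 370 CPM, then 444, 271 and 315 CPM (−0.20 ± 0.23). Both plakins overlapped between the groups, with Ctrl-1 the highest and D0-1 next. Gm42418 differed by −0.20 ± 0.82 and Lars2 by −0.29 ± 0.36, AY036118 by −0.11 ± 0.63 and Gm26917 by 0.09 ± 0.11. Gm42418 and AY036118 had the widest errors, and the value for Gm42418 turned from −0.20 to 1.08 without Ctrl-1 and to −1.63 without D0-1.

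**Figure D5:**
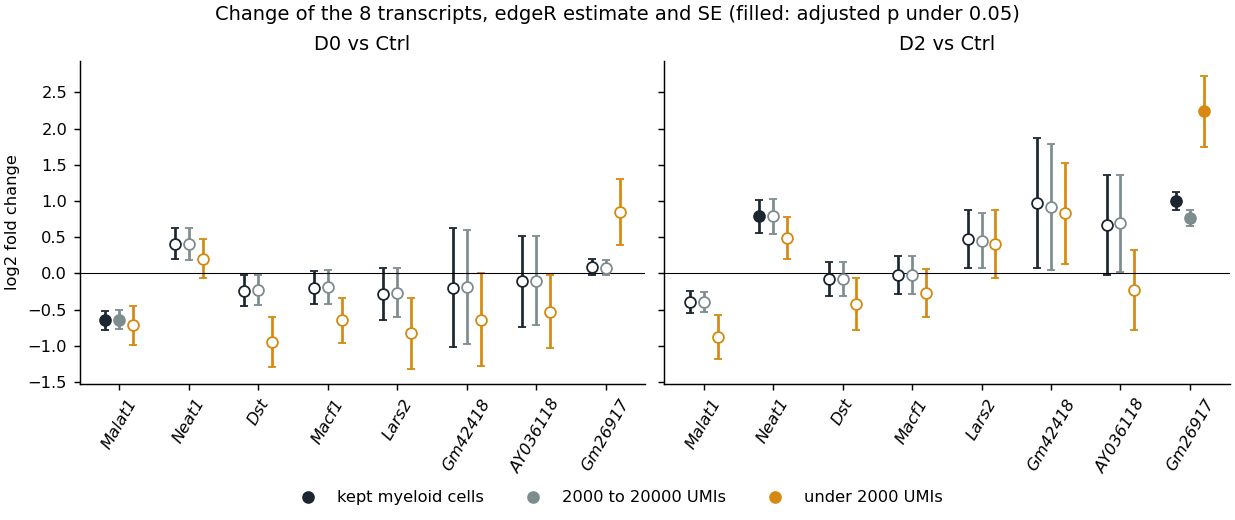
Points are log2 fold changes of the 8 transcripts against Ctrl for D0 (left) and D2 (right), from edgeR on sums per library, and bars are standard errors. Black is all kept cells, grey cells of 2000 to 20000 UMIs and orange cells under 2000 UMIs, and filled points have an adjusted p under 0.05. The filled points are Malat1 in D0 at −0.65 and −0.64, Neat1 in D2 at 0.79 and Gm26917 in D2 at 1.00, 0.76 and 2.24.

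In D2 against Ctrl 2 of the 8 members passed, against 17.5% of all genes. These calls are not independent of the choice of members, whose cluster the study describes as enriched in D2. Gm26917 rose, from 93.2, 82.3 and 76.8 CPM in Ctrl to 174 and 138 CPM in D2, with 79.6, 73 and 80.6 CPM in D0. Both D2 libraries used were above all 6 others, and the share of all genes that were so was not counted. The log2 fold change was 1.00 ± 0.12, with an edgeR adjusted p of 0.00084. It passed in 20 of 21 alternatives. D2-3 was at 72.1 CPM, below every Ctrl library, and with D2-3 in the fit the fold was 0.77 ± 0.23 with an adjusted p of 0.0599.

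A few barcodes held much of the Gm26917 signal. Of all barcodes 31 gave 1% or more of their UMIs to Gm26917, up to 28.2%, with a median depth of 796 UMIs. In D2-1 and D2-2 there were 17 of them, of which 8 in D2-1 and 3 in D2-2 were among the kept cells. The 31 barcodes had 4631 CPM of summed astroglial markers against 1050 CPM in other shallow barcodes. By cluster, 17 were unnamed, 9 microglia-like, 3 astroglial-like and 2 border-associated macrophage-like. In shallow barcodes the top 1% by count held 45.8% of all Gm26917 UMIs, compared with 7.79 to 19.8% for the other members. Without the 31 barcodes the kept level was 93, 82.3 and 76.8 CPM in Ctrl, 79.6, 66.6 and 80.6 CPM in D0 and 131 and 108 CPM in D2-1 and D2-2. Both D2 libraries thus stayed above the other 6. The barcodes were picked on Gm26917 itself, so no test was run without them.

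Neat1 rose in D2 by a log2 fold change of 0.79 ± 0.23 (edgeR adjusted p = 0.0484), from 127, 179 and 170 CPM in Ctrl to 201 and 306 CPM. Both D2 libraries were above the 3 Ctrl libraries, and D2-1 lay within the range of D0. How many of all genes had both D2 libraries above Ctrl was not counted. The call was held in 11 of 21 alternatives, and leaving out Ctrl-1, Ctrl-2, Ctrl-3, D0-2, D0-3 or D2-2 ended it, with 0.42 ± 0.25 and an adjusted p of 0.374 without D2-2. In D2-3 Neat1 was at 409 CPM. In microglia-like cells of 2000 to 8000 UMIs Neat1 was at 117, 142 and 149 CPM in Ctrl and 234 and 315 CPM in D2-1 and D2-2. In the 177 such cells of D2-3 it was at 13.2 CPM, below every Ctrl library. In the 24 border-associated macrophage-like cells of D2-3 at this depth it was at 4653 CPM.

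Over all kept cells Malat1 in D2 was at 16009 and 17937 CPM, below all Ctrl libraries. Its log2 fold change was −0.40 ± 0.15, with an edgeR adjusted p of 0.0924. In microglia-like cells of 2000 to 8000 UMIs D2-1 was at 20229 and D2-2 at 29894 CPM, against 34069, 28301 and 26150 CPM in Ctrl. Kept cells of D2 also overlapped Ctrl at 2000 to 4000 and 4000 to 8000 UMIs, and were below it in the other depth classes. Gm42418 was 0.97 ± 0.90 higher, Lars2 0.48 ± 0.40 and AY036118 0.67 ± 0.69, none of which passed. Both D2 libraries used belong to those with few UMIs and many shallow cells, so for these 3 genes treatment and library cannot be told apart. With the log2 total of UMIs of the library as a term, an alternative chosen after the data were seen, Gm42418 turned to −0.67 ± 0.68. Dst had 240 and 170 CPM and Macf1 467 and 356 CPM in D2-1 and D2-2, within or at the edge of the range of Ctrl or D0.

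Between D2 and D0 none of the 8 members passed in edgeR, nor did any of the 12834 genes (0%), of which 751 had an unadjusted p under 0.05. DESeq2 called 30 genes, Gm26917 among them. The values of Gm26917 differed by 0.92 ± 0.12 (edgeR adjusted p = 0.334).

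Within shallow cells alone no member passed in D0 in edgeR, against 5.91% of 5377 genes. Malat1 was at 53760, 46778 and 36837 CPM in Ctrl and 23095, 25250 and 29100 CPM in D0, so that the groups did not overlap, at −0.72 ± 0.27 and an adjusted p of 0.116. Dst had 663, 290 and 313 CPM against 270, 152 and 179 CPM, at −0.95 ± 0.34 (edgeR adjusted p = 0.103). Macf1 had 1121, 534 and 539 CPM against 467, 387 and 469 CPM, at −0.65 ± 0.31 (edgeR adjusted p = 0.21). For Dst and Macf1, too, all D0 libraries lay below all Ctrl libraries. The share of all genes that did so was counted by depth class only, at 16.5% for 500 to 1000 and 11.5% for 1000 to 2000 UMIs. Malat1, Dst and Macf1 had an unadjusted p under 0.05 in edgeR, as did 1201 of the 5377 genes, and DESeq2 called 1 member, Malat1. In D2 1 member passed, against 7.96% of genes. Gm26917 was at 418, 212 and 187 CPM in Ctrl and 1435 and 946 CPM in D2 (2.24 ± 0.49, edgeR adjusted p = 0.00674), with D0-2 at 972 CPM. Without the 31 barcodes above these became 408, 212 and 187 CPM in Ctrl and 421 and 279 CPM in D2, which overlap. Without D2-1 the adjusted p was 0.054. Other measures moved with treatment in shallow cells. Summed border-associated macrophage markers were at 592 to 1452 CPM in the Ctrl libraries. They were at 13.8 to 46.1 CPM in D0 and 23.9 and 88 CPM in D2-1 and D2-2. The 5 of 8 that could be tested fell in both. These 5 passed the level filter through Ctrl, where they were high, so the direction of this count was set in advance. Summed neutrophil markers were at 247 to 468 CPM in Ctrl, 276 to 2516 CPM in D0 and 512 and 968 CPM in D2-1 and D2-2, with 5 of 6 rising in D0 and 3 of 6 in D2. Neutrophil markers, too, could pass the filter through the groups where they were high. Microglial markers fell in 2 of 14 in D0 and 3 of 14 in D2, and summed to 38471 to 43623 CPM in Ctrl, 30770 to 45442 CPM in D0 and 38096 and 42377 CPM in D2-1 and D2-2. Their part in the members' levels was not tested.

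Within deeper cells 1 member passed in D0, against 20.3% of 12796 genes, and 1 in D2, against 17.3%. Malat1 fell in D0 (−0.64 ± 0.13, edgeR adjusted p = 0.01), and Gm26917 rose in D2 (0.76 ± 0.11, edgeR adjusted p = 0.0024). Neat1 differed by 0.79 ± 0.24 in D2 (edgeR adjusted p = 0.0525).

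Whether the change with treatment differs between shallow and deeper cells was tested as an interaction, with each library as a block. For D0 none of the 8 members differed in edgeR, against 0.127% of 12575 genes. An unadjusted p under 0.05 was found for 2 members, Dst and Gm26917, and for 733 of the 12575 genes. The difference for Malat1 was 0.05 ± 0.39. For D2 1 member differed, against 0.167% of genes. The rise of Gm26917 was larger in shallow than in deeper cells by 1.62 ± 0.27 on the log2 scale (edgeR adjusted p = 3.6e-06). Without D2-1 it was 1.39 ± 0.35 with an adjusted p of 0.0645, and in microglia-like clusters alone it was 1.59 ± 0.42 with an adjusted p of 0.134. Without the 31 barcodes, where no test was run, the levels in D2-1 and D2-2 went from 1435 and 946 to 421 and 279 CPM in shallow cells, where they overlap Ctrl, and from 139 and 117 to 123 and 104 CPM in deeper cells, above the 86.3, 81.8 and 76.1 CPM of Ctrl.

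The share of shallow cells varied more within Ctrl and D0 than between them. It was 7.07 ± 5.76% in Ctrl (SD, n = 3), 7.47 ± 6.12% in D0 (n = 3) and 16 ± 0.37% in D2 (n = 2). D0 differed from Ctrl by 0.397 percentage points (two-sided exact permutation test, p = 0.8, smallest possible 0.1), and D2 by 8.93 points (exact p = 0.2, the smallest possible with 2 against 3). The difference of D0 turned to −3.11 points without D0-1. Ctrl-1 at 13.7% (95% Wilson interval 12.7 to 14.8%) and D0-1 at 14.5% (13.4 to 15.6%) stood apart from the others of their groups.

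Genes of the pathways around the members were read from the same fits, in which 20.3% of all genes were called in D0 and 17.5% in D2. None of 7 nuclear long non-coding RNAs other than the members passed in D0 or in D2. Of 14 nuclear speckle genes 2 fell in D0, Son (−0.41 ± 0.09, edgeR adjusted p = 0.0188) and the splicing factor Srsf5 (−0.55 ± 0.16, adjusted p = 0.0429), and none passed in D2. Of 10 paraspeckle genes Nudt21, a cleavage factor for 3′ ends, rose and its partner Cpsf6 fell in both D0 (0.64 ± 0.12 and −0.42 ± 0.11) and D2 (0.52 ± 0.14 and −0.48 ± 0.13). D0 and D2 share their controls. The medians of these lists lay between −0.15 and 0.06, near those of all genes, −0.06 in D0 and −0.02 in D2.

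Of 30 other long coding transcripts 1 rose and 2 fell in D0 and 2 rose and 2 fell in D2. Syne2, a giant protein of the nuclear envelope, rose by 2.25 ± 0.31 in D0 and 2.62 ± 0.33 in D2 (edgeR adjusted p = 0.00154 and 0.00108), and Zfhx3 (−0.62 ± 0.11 in D0) and Nf1 (−0.57 ± 0.15 in D0) fell in both. Of 13 other plakins and partners at microtubule ends, Plec (plectin) rose (1.09 ± 0.30 in D0) and 3 fell in D0 and 4 in D2, among them Camsap1 (−0.64 ± 0.13 in D0) and Elmo1 (−0.61 ± 0.15 in D0). Of the 30 long coding transcripts 3 were called in D0 and 4 in D2, with 20.3% and 17.5% of all genes called, and their medians were −0.05 in D0 and 0.16 in D2. Of 18 mitochondrial aminoacyl-tRNA synthetases, the class of Lars2, none passed in D0 or D2. Of 18 cytosolic ones Qars (0.52 ± 0.15) and Vars (0.56 ± 0.17) rose in D0, and Aars fell in D2 (−0.58 ± 0.16).

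Of 20 genes of RNA polymerase I and ribosome biogenesis, which make ribosomal RNA and assemble it, 3 rose in D0 and 4 in D2. Of all genes 20.3% were called in D0 and 17.5% in D2. They were Npm1 (1.05 ± 0.12 in D0 and 1.21 ± 0.13 in D2), Polr1d (0.74 ± 0.09 and 0.72 ± 0.10), Fbl (0.58 ± 0.13 and 0.67 ± 0.14) and, past the threshold in D2, Taf1d (0.62 ± 0.12). The medians of the list were −0.04 and 0.20. Of 13 messenger RNAs encoded in mitochondrial DNA mt-Nd4l (1.08 ± 0.19 in D0) and mt-Nd5 (0.75 ± 0.16 in D0) rose in both groups. Of 14 apoptosis and stress genes 4 rose and 1 fell in each, with list medians of −0.02 in D0 and 0.04 in D2. Bax, Pmaip1 and Bbc3, which promote cell death, were among those that rose in D0 (0.59 ± 0.13, 1.43 ± 0.33 and 0.99 ± 0.24).

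Markers of other cell types in the kept cells were read in the same way, against 20.3% of all genes called in D0 and 17.5% in D2. Border-associated macrophage markers fell in 5 of 8 in D0 and 3 of 8 in D2, and dendritic cell markers rose in 5 of 8 and 4 of 8. None of 8 monocyte markers passed in either. Endothelial markers rose in 2 and fell in 1 of 8 in both, and 1 of 5 lymphoid markers rose and 1 of 5 astroglial markers fell in both. Of 4 oligodendroglial markers 1 fell in D2, and no mural, ependymal or neuronal marker passed. No erythroid marker was high enough to be tested. Their part in the levels of the 8 members was not tested.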

How the data were processed

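Live Cd11b+ cells of mouse brain were profiled with the 10x 3′ kit v3. The deposited files hold counts, whole UMIs per gene and barcode in each library. Per the file headers the authors made them with Cell Ranger 3.0.2 (Ctrl-1, D0-1 to D0-3, D2-1, D2-2) or 3.1.0 (Ctrl-2, Ctrl-3, D2-3), whereas the submitters' processing notes name 3.1.0 and mm10. Whether intronic reads were counted is not given in the sources used here. The 8 members, the gene lists and the tests were chosen with earlier results of these data known.

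Barcodes of 500 to 20000 UMIs, 200 or more genes and up to 10% mitochondrial UMIs were clustered (leidenalg 0.10.2, 3000 variable genes without the members, 10 components, 20 neighbours, resolution 0.6) in Python 3.11.15. The cells of D2-3 and those outside these limits were placed by their nearest 30 neighbours. Clusters were named from marker lists, clusters with neutrophil or non-myeloid markers were left out, and doublets were not removed. The groups follow the labels, and libraries come from separate animals, so that p-values measure the spread between libraries. UMIs were summed per library over all kept, shallow or deeper cells and tested in 1 edgeR 4.0.16 fit of 8 libraries (R 4.3.3, filterByExpr, TMM, quasi-likelihood, Benjamini-Hochberg adjustment over all genes tested). The difference between shallow and deeper cells was an interaction with library as a block, and shares of cells were compared by exact permutation tests (scipy 1.17.1). The labels give 6 mice to D2 and the study used 4, and D2-3 was kept out of the fits.

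Named genes are the 8 members, up to 4 genes a list with the smallest adjusted p, the 8 highest and 8 lowest genes in the ratio of shallow to deeper cells that kept 1 direction in the 8 libraries, and the 5 genes most like Gm42418, Malat1 and Macf1. Alternatives were DESeq2 1.42.0, other scaling, filters and depth limits, D2-3 included, the software version or replicate number as a term, and each library left out. Tested on simulated data, the fit of D0 recovered 69% of genes changed 2-fold and 17% of those changed 1.5-fold among 12590 genes, with 3.37% false calls. That of D2 recovered 62% and 14% among 12588 genes, with 10.6% false calls. The interaction recovered 5.21% of 2-fold changes among 12313 genes, so it misses most changes of that size. The sequencing depth was 20257894 to 61230741 UMIs a library.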

Additional observations from a re-analysis of the deposited data

Results flagged for a closer look

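The change of Gm26917 from Ctrl to D2 differed between shallow and deeper cells by 1.62 ± 0.27 on the log2 scale (edgeR interaction, adjusted p = 3.6e-06), with D2 above Ctrl in 2 of 2 libraries in both. It was past the threshold in 10 of 12 alternatives, from 1.35 to 2.24, and not without D2-1 (1.39, adjusted p = 0.0645) or in microglia-like clusters alone (1.59, adjusted p = 0.134). Of the shallow barcodes with 1% or more Gm26917, 6 in D2-1 and 2 in D2-2 were among the kept cells. Without all 31 such barcodes the shallow levels of D2-1 and D2-2 went from 1435 and 946 to 421 and 279 CPM, against 408, 212 and 187 CPM in Ctrl, and no test was run on these values.

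Library D2-3, which entered no comparison, had levels above every Ctrl library. Neat1 was at 409 CPM in its kept cells, 337 CPM in its shallow cells and 410 CPM in its deeper cells. Gm26917 was at 551 CPM in its shallow cells, and at 223 CPM there, within the range of Ctrl, without the barcodes of 1% or more Gm26917. These values were not tested.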

How the results depend on the processing

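Of the alternative values for counts of called members and shares of cells 162 stayed within the set limits and 39 moved past them, and none of the member fold changes that passed turned its direction. Including D2-3 left 0 of 8 members called in D0 (kept and deeper cells) against 1, 1 against 2 in D2 kept cells, and 2 against 1 in D2 shallow cells. In D2 kept cells 1 was called with only the 2 groups fitted, with all barcodes and with no upper UMI limit. The 4 libraries with the most UMIs of the 8 (Ctrl-2, Ctrl-3, D0-2 and D0-3) alone gave 2 called in D0 (kept and deeper cells), adding Neat1 in kept cells. DESeq2 called 1 member in D2 against D0, 1 in D0 shallow cells and 2 in D2 deeper cells. The software version as a term gave 3 in D0 shallow, 0 in D2 shallow and 2 in D2 deeper cells. A shallow limit of 1000 UMIs gave 2 in D0. In D2 deeper cells 2 were called with no filterByExpr, in microglia-like clusters only and with library total UMIs as a term. In microglia-like clusters only, 0 differed between shallow and deeper cells in D2. The causes were not tested.

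With each library left out in turn, the members called ranged from 1 to 2 in D2 kept cells, 0 to 2 in D0 shallow cells, 0 to 3 in D2 shallow cells and 1 to 2 in D2 deeper cells, and from 0 to 1 for the differences of D0 and of D2 between shallow and deeper cells. The shallow share of D0 minus Ctrl ranged from −3.11 (without D0-1) to 3.71 points (without Ctrl-1).

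Libraries with the same number came from different mice, so the numbers were not taken as pairs. Their deviations correlated at −0.001 to 0.414, with 0.098 for Ctrl-3 and D0-3. Libraries of different numbers and groups correlated at −0.306 to 0.214. Whether libraries with the same number shared a batch cannot be told from these values. With the replicate number as a block, 2 members were called in D0 in kept and in deeper cells, 1 in D0 shallow cells and 2 in D2 deeper cells. Not every library correlated best with its own number.

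Over all genes, 2610 were called in D0 kept cells, but 480 with D2-3, 1112 with the software version as a term, 1525 without Ctrl-2, 1086 without Ctrl-3, 1117 without D0-2, 1562 without D0-3 and 3922 in the 4 libraries with the most UMIs. In D2, 2245 were called, but 933 with the software version as a term, 1363 with library total UMIs as a term, 1460 without Ctrl-2, 1157 without Ctrl-3 and 810 without D2-2. The library total as a term and the 4-library fit were chosen after the data were seen. Few UMIs limit shallow cells, and 2 or 3 libraries a group limit every test.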
